A study of Homo sapiens with 6 samples.

Results

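The genes of cholesterol and fatty acid synthesis were followed in RNAseq libraries of the prostate cancer line C4-2B and its cabazitaxel (CBZ)-resistant derivative RC4-2B. The 37 genes were taken by name from the 58735 genes of the count table. They are 17 enzymes that lead from acetyl-CoA to cholesterol, 5 regulators of the pathway, 3 genes of sterol transport and storage, and 12 enzymes that make, lengthen and desaturate fatty acids. All 37 had enough counts to be tested, among 15054 genes that did. They were listed by function, and the rule itself used no measured value. Earlier results of these data were known when the members were chosen.

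C4-2B is a castration-resistant metastatic prostate cancer cell line, and its 3 libraries come from parental cells without drug selection. RC4-2B is a single subclone of C4-2B, kept through repeated rounds of CBZ and recovery over 4 months with CBZ raised from 0.1 to 20 nM, and it also has 3 libraries. The labels call the replicates of each line biological and name no drug in the medium of either line at harvest. Cells grew in RPMI medium, and the sources differ on its serum. The labels name 10% FBS, and the methods text names both charcoal-stripped serum and FBS, so the supply of outside sterol and fatty acid is not known. One resistant subclone was compared with its parent, so resistance and the history of that subclone cannot be told apart.

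Cells build cholesterol from acetyl-CoA through mevalonate, farnesyl diphosphate and squalene. The SREBP transcription factors, encoded by SREBF1 and SREBF2, turn these genes on: SCAP carries SREBP towards its activating proteases when membranes hold little sterol, and the INSIG proteins hold it back when sterol is plentiful. The same factors drive fatty acid synthesis, in which ACLY supplies acetyl-CoA, ACACA makes malonyl-CoA and FASN joins the units into palmitate. Both pathways are known to respond to androgen in prostate cancer cells.

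SREBP binds sterol regulatory elements, commonly beside sites for NF-Y and SP1, so promoter sequence of 5 members is shown: SREBF2 as the one member with a sterol element of the searched form, MSMO1 and MVD as sterol enzymes with lower values in RC4-2B, and SOAT1 and ELOVL6 as members with higher values. Sequences are from RefSeq (GRCh38.p14), 5′ to 3′ on the coding strand, with bases annotated as UTR left out. Bases past the start site were left out too, and only the longest remaining stretch is shown. The stretches therefore differ in length, from 167 bases for SOAT1 to 250 for SREBF2. Capitals mark TCACNCCAC (a sterol regulatory element form), CCAAT (the NF-Y motif) and GGGCGG (the SP1 motif), on either strand.
SREBF2: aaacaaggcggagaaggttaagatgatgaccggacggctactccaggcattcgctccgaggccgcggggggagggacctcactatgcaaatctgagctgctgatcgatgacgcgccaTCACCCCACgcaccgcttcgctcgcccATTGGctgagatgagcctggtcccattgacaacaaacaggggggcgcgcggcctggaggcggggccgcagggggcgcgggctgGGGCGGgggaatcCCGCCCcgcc
MSMO1: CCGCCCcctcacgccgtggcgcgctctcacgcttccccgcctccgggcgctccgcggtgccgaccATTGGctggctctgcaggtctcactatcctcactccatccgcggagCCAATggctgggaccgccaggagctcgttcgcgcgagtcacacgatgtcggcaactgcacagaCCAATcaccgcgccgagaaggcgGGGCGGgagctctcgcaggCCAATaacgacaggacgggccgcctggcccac
MVD: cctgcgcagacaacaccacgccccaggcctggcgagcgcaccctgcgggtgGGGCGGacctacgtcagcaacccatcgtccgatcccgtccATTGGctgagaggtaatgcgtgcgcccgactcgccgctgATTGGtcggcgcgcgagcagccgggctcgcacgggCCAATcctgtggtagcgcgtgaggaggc
SOAT1: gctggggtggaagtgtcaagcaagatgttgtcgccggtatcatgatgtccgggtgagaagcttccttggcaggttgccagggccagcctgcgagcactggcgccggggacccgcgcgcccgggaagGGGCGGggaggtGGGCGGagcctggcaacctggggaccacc
ELOVL6: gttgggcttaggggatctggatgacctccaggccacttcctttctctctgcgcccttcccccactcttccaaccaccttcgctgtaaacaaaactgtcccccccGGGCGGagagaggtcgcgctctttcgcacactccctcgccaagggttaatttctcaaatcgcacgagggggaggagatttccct

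The stretches lie at chr22:41832855-41833104 (plus strand) for SREBF2, chr4:165327419-165327666 (plus) for MSMO1, chr16:88663149-88663341 (minus) for MVD, chr1:179293547-179293713 (plus) for SOAT1 and chr4:110198654-110198841 (minus) for ELOVL6. The MSMO1 stretch held 4 CCAAT and 2 GGGCGG matches, and the MVD stretch held 3 and 1. The trimmed stretches of SOAT1 and ELOVL6 held 2 and 1 GGGCGG and no CCAAT, but the full window of SOAT1 held a CCAAT match that the trimming cut at the end of the stretch shown, and ACACA, which also had higher values, held CCAAT in a window too. Windows of 300 bases were given for 33 of the 37 members (45 windows) and for 35116 start sites in all. CCAAT was present in 64.4% of member windows and 34.6% of all windows, GGGCGG in 86.7% and 45%, and TCACNCCAC in 2.22% (1 window) and 1.13%. Matches of different motifs shared bases in 1 member window. Among the 14 sterol pathway enzymes with a window, 13 held CCAAT, as did 8 of 11 fatty acid enzymes. A match describes these letters only. SQLE, ACAT2, FASN and FDFT1 were not matched.

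The libraries held 15707134 to 18052517 counts on genes, and the smallest count of a member in any library was 182, far above the 3 counts (0.17 to 0.188 CPM) taken as the floor. ABCB1, the drug efflux pump used to check the labels, had 0, 1 and 0 counts in C4-2B and 10742, 15948 and 13179 counts in RC4-2B. RC4-2B replicate 2 stood apart: the SD of log2 differences between genes was 0.63 and 0.55 against the other RC4-2B libraries, but 0.24 between those and 0.17 to 0.22 among C4-2B libraries. Its departures followed GC content, as described below. For many members, though not all, results are therefore also given without it or after GC correction. All 7 luminal prostate markers were detected in every library, with a summed level of 3300 to 3400 CPM in C4-2B and 2200 to 2640 CPM in RC4-2B. The basal markers summed to at most 0.968 CPM, with KRT5 and TP63 at 0, and the neuroendocrine, immune and adipocyte markers to at most 2.77, 0.396 and 0.34 CPM, with ADIPOQ at 0. Fibroblast markers (21.2 to 25.2 and 22.2 to 36.6 CPM) rested on COL1A1, with COL1A2 and DCN at 0, and endothelial markers (7.46 to 8.14 and 3.64 to 5.07 CPM) on VWF, with PECAM1 at 0.

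The comparison asked whether cells that acquired taxane resistance express sterol and fatty acid synthesis genes at another level than their parent. SOAT1, which esterifies cholesterol for storage, was the 1 member that passed an adjusted p of 0.05 with higher expression in RC4-2B, and no member passed with lower expression (edgeR quasi-likelihood test). Over all genes tested, 1.08% passed as higher and 0.903% as lower. At an unadjusted p under 0.05, 5 members were higher and 13 lower, beside 12% and 9.42% of all genes. DESeq2, the tool named in the study's methods, called 3 members higher (SOAT1, ACACA and ELOVL6) and 5 lower (FDFT1, DHCR7, MSMO1, MVD and TM7SF2), beside 3.28% and 2.64% of genes. Without a filter on low counts edgeR called SOAT1, ACACA and ELOVL6 higher (beside 2.07% of genes) and DHCR7, MSMO1, MVD and TM7SF2 lower (2.22%). With the replicate number as a block it called no member (0.365% of genes higher and 0.492% lower), and with block and GC correction 3 higher and 6 lower (4.26% and 3.75%).

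The log2 fold change was below 0 for 25 members and above 0 for 12, while 49.3% and 50.7% of all genes lay on those sides. The members' median was -0.24 and that of all genes was 0.01. In 16 members (43.2%) every RC4-2B library lay below every C4-2B library, and in 4 (10.8%) every RC4-2B library lay above. Such separation was seen in 17.1% of all genes for lower and 17.0% for higher. These shares were not compared by a test.

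**Figure D1:**
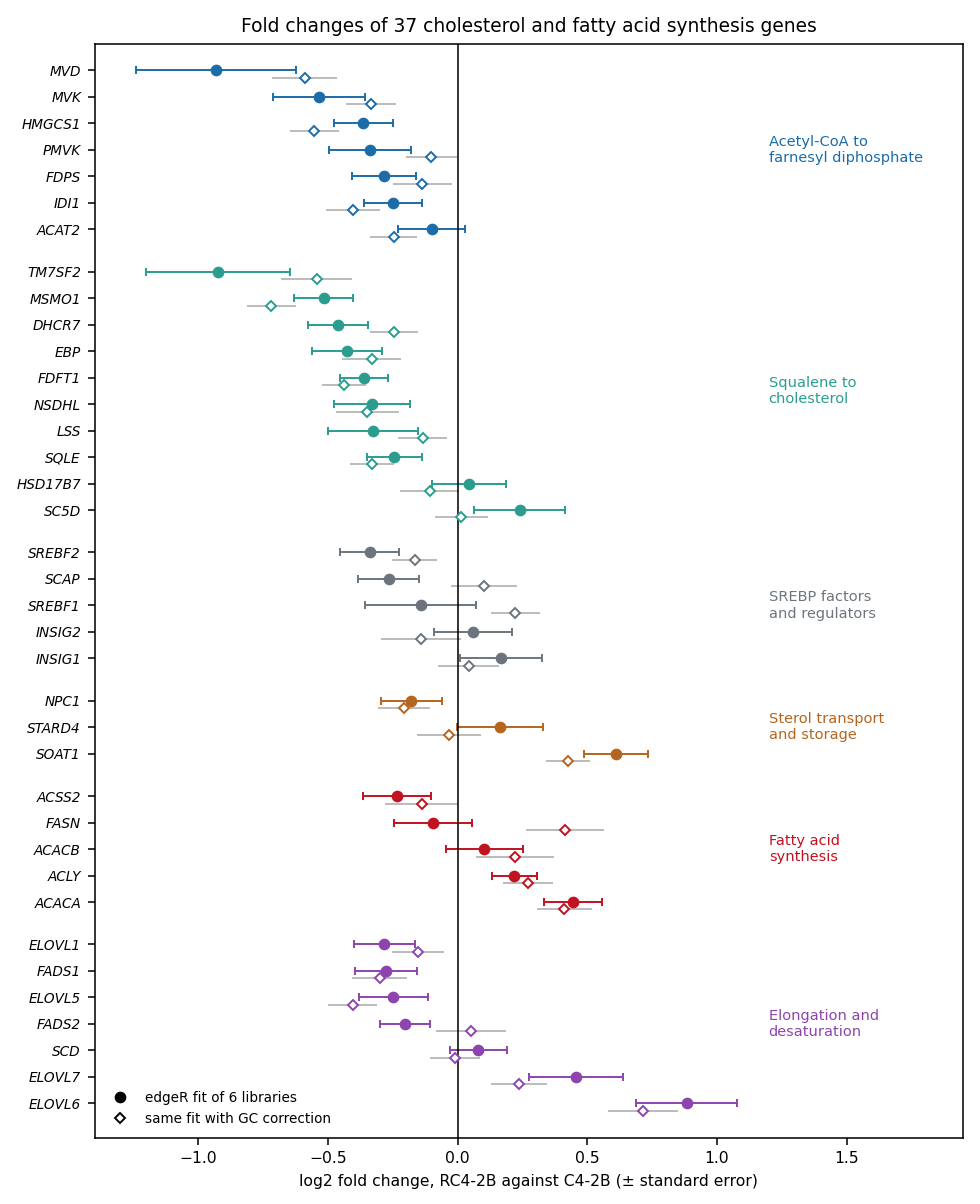
Log2 fold change of each of the 37 genes (RC4-2B against C4-2B, horizontal axis) with its standard error, grouped by role. Filled circles are the edgeR estimates over 6 libraries and open diamonds those after GC correction; 15 of 17 mevalonate and sterol enzymes lay below 0, and ELOVL6, SOAT1 and ACACA lay above 0 under both.

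The 17 enzymes from acetyl-CoA to cholesterol had lower values in RC4-2B for the most part. Their log2 fold changes were below 0 in 15 and above 0 in 2, with a median of -0.34, and none passed the adjusted threshold. In 11 of 17 (64.7%) the groups did not overlap, each time with RC4-2B lower, beside 17.1% of all genes. Added together, the 17 enzymes held 2028, 1982 and 1917 CPM in C4-2B and 1572, 1477 and 1537 CPM in RC4-2B. The sum was lower in every RC4-2B library, at 0.774 of the C4-2B mean (1976 ± 55.4 against 1529 ± 48 CPM, SD, n = 3). In bulk RNA, less of these transcripts in every cell and a shift in the mix of cells cannot be told apart.

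**Figure D2:**
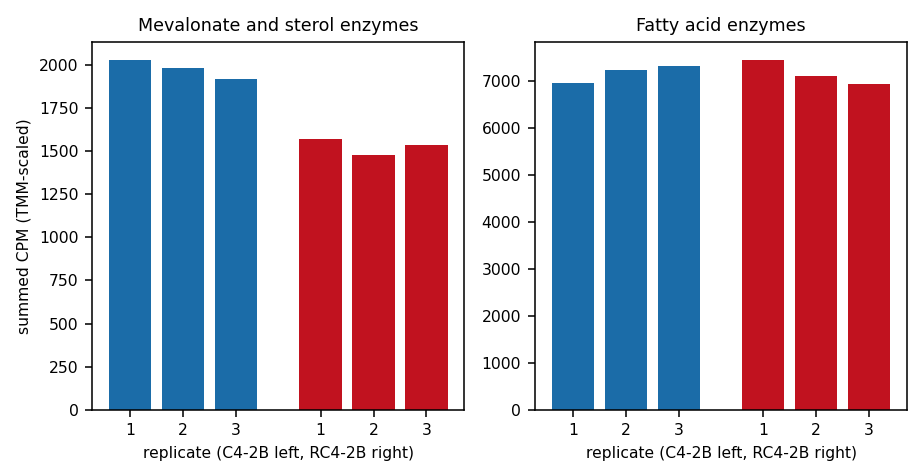
Summed TMM-scaled CPM of the 17 mevalonate and sterol enzymes (left) and of the 12 fatty acid enzymes (right), 1 bar per library, with blue for C4-2B and red for RC4-2B. The sterol sums were 1917 to 2028 in C4-2B and 1477 to 1572 in RC4-2B, and the fatty acid sums overlapped between 6938 and 7457.

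In the steps from acetyl-CoA to farnesyl diphosphate, all 7 log2 fold changes were below 0. HMGCS1, the synthase that condenses acetyl-CoA and acetoacetyl-CoA, had 86.2, 95.9 and 93.2 CPM in C4-2B and 65.1, 75.7 and 73.1 CPM in RC4-2B. Each RC4-2B library was below the lowest C4-2B library, and the 3 RC4-2B libraries stayed close together. For HMGCS1 the log2 fold change was -0.36 (SE 0.11, adjusted p = 0.13), and -0.55 after GC correction (adjusted p = 0.0071). MVD, the decarboxylase that completes isopentenyl diphosphate, held 47.8, 45.4 and 43.9 CPM in C4-2B and 30.5, 11.8 and 29.6 CPM in RC4-2B. No RC4-2B library reached the C4-2B range, but replicate 2 lay far below the other two. Its log2 fold change of -0.93 (SE 0.31, adjusted p = 0.15) came to -0.61 without that library (adjusted p = 0.00096).

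The kinases came between these steps. MVK, which phosphorylates mevalonate, had 59.2, 55.9 and 49.9 CPM in C4-2B and 42.7, 28.3 and 42.9 CPM in RC4-2B, again without overlap (log2 fold change -0.54, SE 0.18, adjusted p = 0.15). For MVK the edgeR log2 fold change was -0.36 without RC4-2B replicate 2 (adjusted p = 0.026) and -0.33 after GC correction (adjusted p = 0.064). The MVK span overlaps MMAB on the opposite strand by 620 bases, and the counting of strand is not known. PMVK, the next kinase, ranged from 64.7 to 74.3 CPM in C4-2B and from 44.4 to 66.1 in RC4-2B, and these ranges overlapped. IDI1, the isomerase, was lower in every RC4-2B library (72.0 to 84.7 against 89.4 to 96.4 CPM), with an adjusted p of 0.24. FDPS, which makes farnesyl diphosphate, overlapped at its edge (71.9 to 87.2 against 86.5 to 101 CPM). ACAT2, the thiolase at the start, spanned 48.8 to 63.3 CPM in RC4-2B around the 57.1 to 59.7 CPM of C4-2B. It shares 558 bases of span with TCP1, which had 68324 counts over the 6 libraries beside 5830 for ACAT2.

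Of the 10 enzymes from squalene to cholesterol, 8 had log2 fold changes below 0 and 7 had groups without overlap. MSMO1, the oxidase that removes sterol C4 methyl groups, had the smallest p-value among members with lower values. It held 73.6, 74.9 and 78.7 CPM in C4-2B and 48.0, 56.4 and 54.4 CPM in RC4-2B. Every RC4-2B library was lower, and unlike MVD the lowest was replicate 1. For MSMO1 this gave a log2 fold change of -0.52 (SE 0.11, adjusted p = 0.062), and the adjusted p was 0.002 after GC correction, 0.0012 without RC4-2B replicate 2 and 0.01 with DESeq2, within 6e-05 to 0.26 over all alternatives.

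FDFT1, the squalene synthase that commits farnesyl diphosphate to sterols, had 555, 527 and 531 CPM in C4-2B and 405, 439 and 412 CPM in RC4-2B. Both groups were tight and did not overlap. Its log2 fold change was -0.36 (SE 0.09, adjusted p = 0.086), and -0.40 without RC4-2B replicate 2 (adjusted p = 0.0029). DHCR7, the reductase of the last step, had 243, 251 and 230 CPM in C4-2B and 194, 154 and 179 CPM in RC4-2B. The groups were separate, with a log2 fold change of -0.46 (SE 0.12, adjusted p = 0.083). DHCR7 passed with DESeq2 (adjusted p = 0.025) and without RC4-2B replicate 2 (0.0071), but its log2 fold change was -0.25 after GC correction (adjusted p = 0.13).

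TM7SF2, a sterol reductase, had 111, 122 and 120 CPM in C4-2B and 65.6, 34.5 and 85.7 CPM in RC4-2B. The 3 RC4-2B libraries were all lower and spread widely, with replicate 2 lowest. Its log2 fold change of -0.93 (SE 0.28, adjusted p = 0.13) was -0.54 after GC correction (adjusted p = 0.037) and -0.64 without that library (0.0015). Its span shares 16 bases with VPS51 on the same strand.

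SQLE, the squalene epoxidase and a rate-limiting step, had 79.8, 86.1 and 81.1 CPM in C4-2B and 65.9, 72.6 and 70.0 CPM in RC4-2B. The groups did not overlap, and the difference was small (log2 fold change -0.24, SE 0.11, adjusted p = 0.23). EBP, a sterol isomerase, was lower in every RC4-2B library (101 to 120 against 127 to 169 CPM, adjusted p = 0.14), as was NSDHL, a dehydrogenase of C4 demethylation (26.1 to 34.3 against 35.0 to 41.4 CPM, adjusted p = 0.24). LSS, which closes the rings to lanosterol, overlapped: RC4-2B replicate 1 at 140 CPM lay within the 135 to 141 CPM of C4-2B, and replicate 2 was at 83.9. SC5D, a desaturase, and HSD17B7, a ketoreductase, had log2 fold changes of 0.24 and 0.04 with overlapping groups. SC5D reached 92.5 CPM in RC4-2B replicate 2, beside 57.8 and 66.4 CPM in the other two. The SC5D log2 fold change was 0.02 without replicate 2 and 0.01 after GC correction. HSD17B7 has a near-identical pseudogene copy, so its counts are uncertain.

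**Figure D3:**
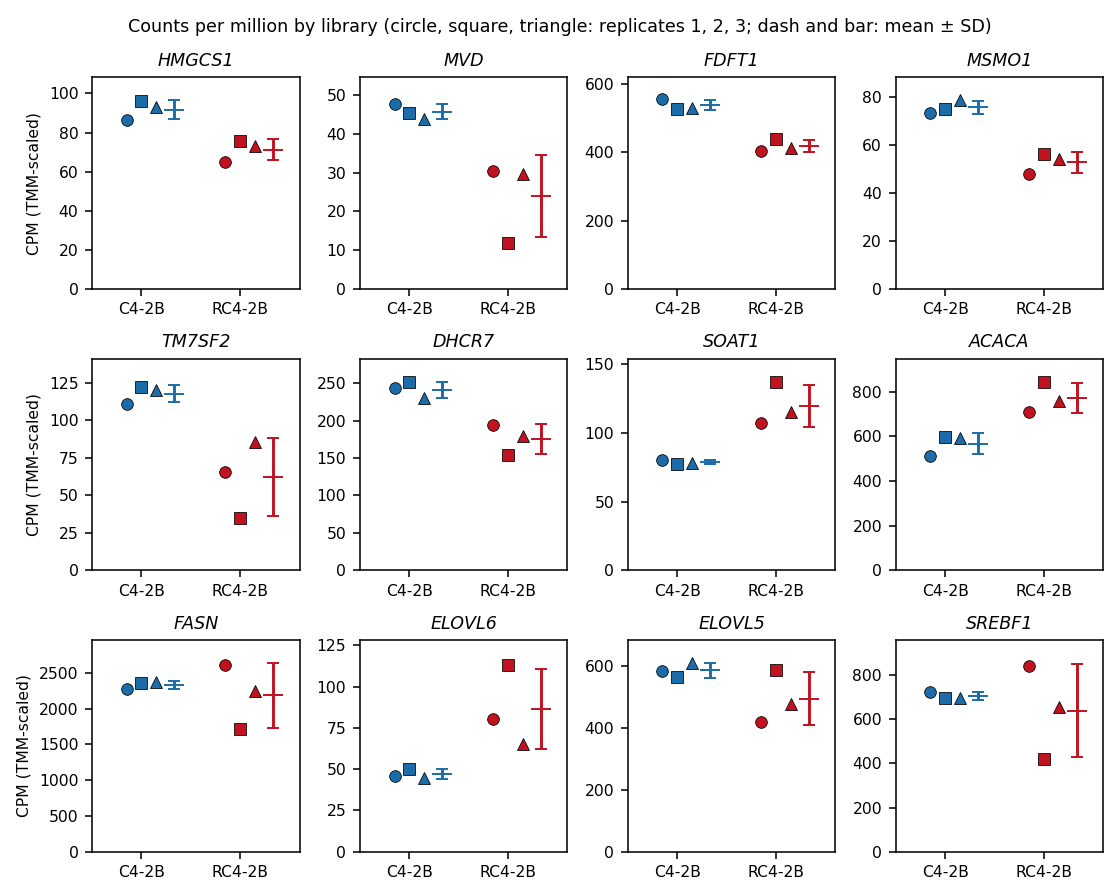
TMM-scaled CPM of 12 members in each library, with 1 panel and 1 linear axis from 0 per gene. Circles, squares and triangles are replicates 1, 2 and 3, and the dash with its bar is the mean ± SD (n = 3). HMGCS1, MVD, FDFT1, MSMO1, TM7SF2 and DHCR7 lay lower and SOAT1, ACACA and ELOVL6 higher in all RC4-2B libraries, while FASN, ELOVL5 and SREBF1 overlapped.

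The regulators showed no call. SREBF2, which encodes the SREBP with most effect on sterol genes, had 429, 420 and 445 CPM in C4-2B and 368, 294 and 360 CPM in RC4-2B. All RC4-2B libraries were lower (log2 fold change -0.34, SE 0.11, adjusted p = 0.16), and the adjusted p was 0.043 without RC4-2B replicate 2 and 0.27 after GC correction. SREBF1, whose products act more on fatty acid genes, had 726, 697 and 696 CPM in C4-2B and 841, 420 and 657 CPM in RC4-2B. The RC4-2B libraries lay on both sides of the C4-2B range, with replicate 1 highest and replicate 2 lowest. Its log2 fold change was -0.14 (SE 0.22, adjusted p = 0.70), and the sign turned after GC correction, to 0.22. SREBF1 overlaps RAI1 on the opposite strand by 1055 bases.

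SCAP, the SREBP escort, was lower in every RC4-2B library, with 147, 142 and 137 CPM in C4-2B and 124, 103 and 129 CPM in RC4-2B. The log2 fold change of -0.27 (SE 0.12, adjusted p = 0.24) was 0.10 after GC correction. INSIG1, a sterol-induced brake and itself an SREBP target, had 344, 359 and 330 CPM in C4-2B and 345, 490 and 325 CPM in RC4-2B. RC4-2B replicate 2 stood well above the C4-2B range and replicate 3 just below it. The log2 fold change of 0.17 (SE 0.16, adjusted p = 0.53) was -0.04 without RC4-2B replicate 2. INSIG2, its relative that depends less on SREBP, had 12.9, 12.2 and 10.4 CPM in C4-2B and 12.1, 12.9 and 11.9 CPM in RC4-2B. These ranges overlapped (log2 fold change 0.06, SE 0.15, adjusted p = 0.83).

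SOAT1 (chr1:179293714-179358680, plus strand), which stores cholesterol as esters in lipid droplets, had 80.1, 77.3 and 78.2 CPM in C4-2B and 107, 137 and 115 CPM in RC4-2B. The highest C4-2B value was under the lowest of RC4-2B, and the C4-2B libraries differed little among themselves. The level was 1.53-fold higher in RC4-2B (log2 fold change 0.61, SE 0.12, adjusted p = 0.048). The call was close to the threshold: SOAT1 passed in 9 of 18 alternatives, with adjusted p between 0.0012 and 0.25 and a log2 fold change between 0.43 and 0.69. It did not pass with the replicate number as a block (adjusted p = 0.080) or without RC4-2B replicate 3 (0.13) or any of C4-2B replicates 1, 2 and 3 (0.23, 0.25 and 0.21). NPC1, which exports cholesterol from lysosomes, and STARD4, a carrier of sterol between membranes, overlapped between the lines (log2 fold changes -0.18 and 0.16, adjusted p = 0.39 and 0.56). NPC1 lies on chromosome 18, whose 230 tested genes had a median log2 fold change of -0.18, and overlaps RMC1 on the opposite strand by 25624 bases.

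Read against each other within a library, SOAT1 and DHCR7 stood in different proportion in the 2 lines. The FPKM ratio of SOAT1 to DHCR7 was 0.196, 0.183 and 0.202 for the C4-2B libraries and 0.328, 0.53 and 0.382 for those of RC4-2B. The lowest RC4-2B ratio was above the highest C4-2B ratio. This pair and the pairs below were chosen after their values had been seen, so no test is given.

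The 12 fatty acid enzymes did not share a direction. Of their log2 fold changes 6 were above 0 and 6 below 0, with a median of -0.01, and groups without overlap were found in 3 higher and 3 lower members (25.0% each, beside 17.0% and 17.1% of all genes). Together they held 6961, 7249 and 7326 CPM in C4-2B and 7457, 7122 and 6938 CPM in RC4-2B. These sums overlapped, with a ratio of 0.999.

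Among the enzymes that supply and join acetyl units, ACACA and ACLY were higher in every RC4-2B library. ACACA, the acetyl-CoA carboxylase that commits carbon to fatty acid synthesis, had 513, 597 and 590 CPM in C4-2B and 709, 844 and 760 CPM in RC4-2B. The groups were well separated, and the level was 1.36-fold higher (log2 fold change 0.44, SE 0.11, adjusted p = 0.081). The adjusted p was 0.045 with DESeq2, 0.041 after GC correction and 0.0085 without RC4-2B replicate 2, within 0.0085 to 0.35 over the alternatives. ACLY, which splits citrate into acetyl-CoA, had 659, 693 and 699 CPM in C4-2B and 790, 816 and 781 CPM in RC4-2B. Both groups were narrow and separate, and the difference was small (log2 fold change 0.22, SE 0.09, adjusted p = 0.21).

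FASN, the fatty acid synthase, had 2270, 2360 and 2370 CPM in C4-2B and 2610, 1710 and 2240 CPM in RC4-2B. One RC4-2B library lay above the C4-2B range and the other two below it. The log2 fold change was -0.10 (SE 0.15, adjusted p = 0.71), and 0.41 after GC correction (SE 0.15, adjusted p = 0.12). ACSS2, which makes acetyl-CoA from acetate, and ACACB, the carboxylase of the mitochondrial surface, overlapped between the lines (log2 fold changes -0.23 and 0.10). ACLY, ACACA, FASN and SREBF1 all lie on chromosome 17, where the median log2 fold change of 944 tested genes was 0.15, and 0.24 after GC correction. The part of the chromosome in the higher values of ACACA and ACLY was not tested.

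The elongases differed from one another. ELOVL6, which lengthens palmitate to stearate, had 45.7, 50.2 and 44.5 CPM in C4-2B and 80.5, 113 and 65.3 CPM in RC4-2B. It was higher in all RC4-2B libraries, by 1.85-fold, with replicate 2 highest. The log2 fold change of 0.88 (SE 0.20, adjusted p = 0.062) was 0.64 without replicate 2 (adjusted p = 0.00098) and 0.72 after GC correction (adjusted p = 0.012). The gene spans chr4:110045846-110199199 on the minus strand. ELOVL7, an elongase of longer saturated chains, had 144, 172 and 184 CPM in C4-2B and 173, 280 and 232 CPM in RC4-2B. RC4-2B replicate 1 lay within the C4-2B range (log2 fold change 0.46, SE 0.18, adjusted p = 0.20). For ELOVL7 the edgeR log2 fold change was 0.28 without RC4-2B replicate 2 (adjusted p = 0.13) and 0.24 after GC correction (adjusted p = 0.20).

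ELOVL5, an elongase of polyunsaturated chains, had 583, 563 and 610 CPM in C4-2B and 417, 585 and 477 CPM in RC4-2B. RC4-2B replicate 2 lay within the C4-2B range and the other two below it. The log2 fold change was -0.25 (SE 0.13, adjusted p = 0.30), -0.39 without replicate 2 (adjusted p = 0.0062) and -0.41 after GC correction (0.027). ELOVL5 and ELOVL6 have nearly the same GC content (41.7% and 41.4%). Within libraries the FPKM ratio of ELOVL6 to ELOVL5 was 0.041, 0.0465 and 0.0382 for the C4-2B libraries and 0.101, 0.101 and 0.0716 for those of RC4-2B. All RC4-2B ratios exceeded all C4-2B ratios, and replicates 1 and 2 of RC4-2B had the same ratio although their CPM differed.

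ELOVL1, which makes very long saturated chains, was lower in every RC4-2B library (122 to 137 against 145 to 176 CPM, adjusted p = 0.22). SCD, the desaturase that makes oleate, had 1010, 1100 and 1090 CPM in C4-2B and 1100, 1270 and 1010 CPM in RC4-2B. The lines overlapped (log2 fold change 0.08, SE 0.11, adjusted p = 0.68). FADS1 and FADS2, the desaturases of polyunsaturated fatty acids, were lower in every RC4-2B library: 204 to 264 against 268 to 292 CPM for FADS1, and 972 to 1120 against 1180 to 1220 CPM for FADS2. Their adjusted p-values were 0.23 and 0.25, FADS1 passed without RC4-2B replicate 2 (0.0099), and the log2 fold change of FADS2 turned from -0.20 to 0.05 after GC correction. The spans of FADS1 and FADS2 overlap by 29694 bases on opposite strands, and FEN1, with 18275 counts over the 6 libraries, overlaps the FADS2 span on its own strand, so reads of these genes may not be fully told apart.

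Levels of different genes were set side by side as FPKM, which divides by gene length. In C4-2B the highest were FASN (223 ± 5.92, SD, n = 3), SCD (179 ± 8.51), ELOVL5 (138 ± 6.34) and ACLY (117 ± 3.95). FASN, SCD, ELOVL5 and ACLY also had the highest mean FPKM in RC4-2B, where ACLY (139 ± 6.3) came before ELOVL5 (118 ± 23.3), a difference within the spread of ELOVL5. FDFT1 was the most abundant sterol enzyme (92.6 ± 2.6 in C4-2B and 73.4 ± 4.93 in RC4-2B), and MVK (7.61 ± 0.624) and HSD17B7 (4.82 ± 0.28) were the least abundant in C4-2B. ACACA was far above its relative ACACB: the ratio was 30, 29.3 and 37.9 for the C4-2B libraries and 38.1, 41.8 and 41.7 for those of RC4-2B. The mean FPKM of ELOVL6 was 5.74 ± 0.335 in C4-2B and 10.8 ± 3.32 in RC4-2B, below ELOVL1, ELOVL5 and ELOVL7 in both. INSIG1 exceeded INSIG2 in every library, by a ratio of 28.9 to 41.

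**Figure D4:**
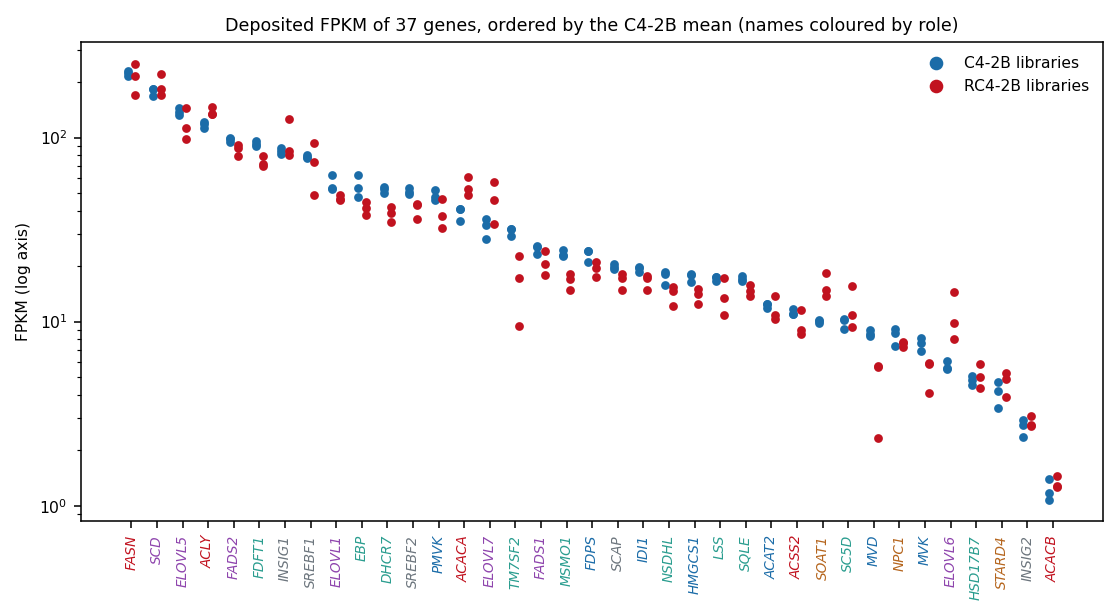
Deposited FPKM (log axis) of the 37 genes in each library, ordered by the C4-2B mean, with C4-2B in blue and RC4-2B in red and gene names coloured by role. Levels ran from FASN at 223 FPKM to ACACB at 1.22 FPKM on average in C4-2B, and the RC4-2B points of MVD, TM7SF2 and SREBF1 spread widely.

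The spread of RC4-2B replicate 2 followed GC content. The departure of its log2 CPM from the mean of RC4-2B replicates 1 and 3 had a Spearman correlation of -0.80 with the GC content of the longest transcript over the 37 members, and of -0.66 over 14987 tested genes. Genes share their libraries, so these values are descriptions. The lowest departures were those of MVD (-1.34 at 63.7% GC), TM7SF2 (-1.12 at 64.2%) and SREBF1 (-0.82 at 63.2%), and the highest that of ELOVL6 (0.64 at 41.4%). GC-rich members were low and GC-poor members high in that library. MSMO1, HMGCS1 and FDFT1 have less GC (37.4%, 39.0% and 47.0%), and the log2 fold changes of all 3 lay further below 0 after GC correction (-0.72, -0.55 and -0.44).

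**Figure D5:**
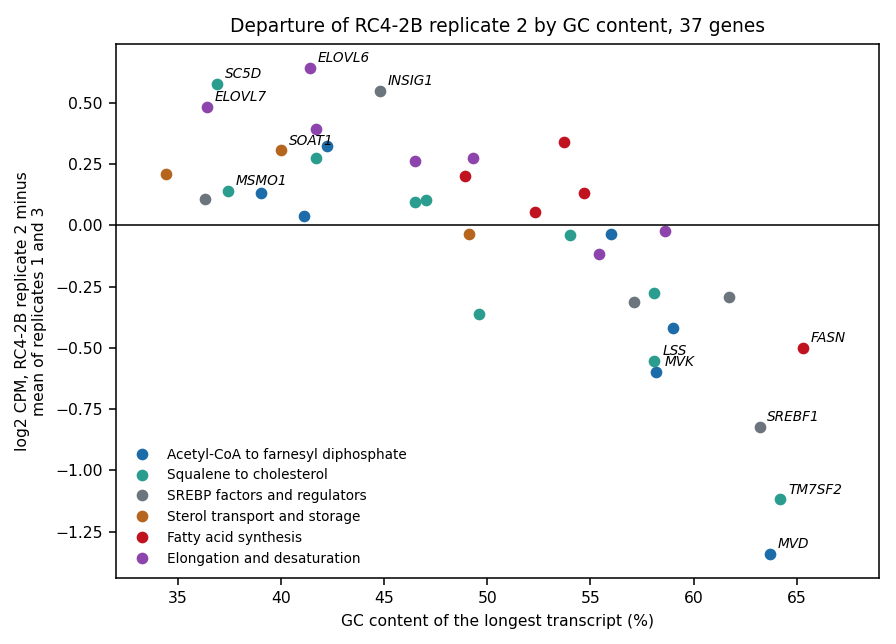
Departure of RC4-2B replicate 2 from the mean of RC4-2B replicates 1 and 3 (log2 CPM, vertical axis) against GC content of the longest transcript (%, horizontal axis) for the 37 genes, coloured by role. Departures run from 0.64 for ELOVL6 at 41.4% GC to -1.34 for MVD at 63.7% GC.

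With GC correction, 3 members passed as higher (SOAT1, ACACA and ELOVL6) and 8 as lower (HMGCS1, MVD, IDI1, FDFT1, SQLE, TM7SF2, MSMO1 and ELOVL5), beside 4.36% and 3.25% of all genes. The correction also takes out any mean GC trend between the lines. Without RC4-2B replicate 2, the same 3 members passed as higher and 12 as lower, beside 6.50% and 6.02% of genes: HMGCS1, MVK, MVD, FDFT1, TM7SF2, MSMO1, EBP, DHCR7, SREBF2, ACSS2, ELOVL5 and FADS1. Without that library, GC correction left 3 higher and 14 lower members, beside 6.74% and 6.59%. Of the 17 mevalonate and sterol enzymes, the number called lower was 7 with GC correction, 8 without the library and 11 with both, and none was called higher in any of these.

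Other genes of lipid metabolism were read from further lists. Passing counts in edgeR were 0 of 6 other sterol enzymes, 0 of 11 isoprenoid genes, 0 of 11 genes of SREBP processing, 0 of 16 tested genes of glycerolipid synthesis, 0 of 18 of fatty acid oxidation and 0 of 8 tested of sterol export. Their median log2 fold changes were 0.06, 0.10, 0.09, -0.07, -0.05 and 0.11, beside 0.01 for all genes, and single genes ranged widely, down to -1.02 among the other sterol enzymes. At an unadjusted p under 0.05, the oxidation list had 1 higher and 4 lower, the glycerolipid list 2 and 4, the isoprenoid list 1 and 1, the other sterol enzymes and the SREBP processing list 1 higher each, and the export list none. Of 16 tested genes of acyl-CoA and fatty acid supply, 1 passed as lower. It was ELOVL2, another elongase of polyunsaturated chains, with 6.2, 6.28 and 8.25 CPM in C4-2B and 2.25, 3.65 and 2.47 CPM in RC4-2B. The groups did not overlap, and the log2 fold change was -1.31 (SE 0.25, adjusted p = 0.039).

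Without RC4-2B replicate 2 more of these genes passed, beside 6.50% of all genes higher and 6.02% lower. Of the 6 other sterol enzymes 0 were called higher and 1 lower, and of the acyl-CoA supply genes 1 and 6. Of the glycerolipid genes 1 and 3 were called, and of the oxidation genes 1 and 3. The isoprenoid, SREBP processing and sterol export lists had none. At an unadjusted p under 0.05 those lists had 1 higher each, and the isoprenoid list 1 lower. At that level 2151 of 15378 genes were higher and 2080 lower. The sterol enzyme was CYP51A1, the lanosterol demethylase, with 20.5, 24.1 and 22.6 CPM in C4-2B and 17.2, 2.45 and 13.7 CPM in RC4-2B. Every RC4-2B library was lower, and replicate 2 lay far below the other two. Without that library its log2 fold change was -0.54 (SE 0.13, adjusted p = 0.016).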

How the data were processed

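RNA of 3 C4-2B and 3 RC4-2B libraries was sequenced. Reads were aligned by the authors to GRCh38 using STAR. They deposited gene counts, whole numbers without normalization, and FPKM, the same counts per gene length and per library total. That total was a constant per library (17878222 to 19817304, all genes within 0.1%). Trimming, the counting program, its handling of strand and of shared reads, and the annotation release are not given in the sources used here. Groups and replicate numbers came from the sample titles, and columns were matched by the names in the labels.

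Counts were tested in R 4.3.3 with edgeR 4.0.16 (TMM scaling, filterByExpr with a minimum of 10 counts, glmQLFit and glmQLFTest with the line as the only term, two-sided, Benjamini-Hochberg adjustment over 15054 genes, threshold 0.05). CPM values are TMM-scaled. Each SE was taken as the size of the log2 fold change over the root of its F statistic. The study's methods name DESeq2, used here (1.42.0) as an alternative. Other alternatives were RLE and upper-quartile scaling, no filter, a filter on the mean (10 counts), leaving out each library, a block for replicate number, limma 3.58.1 on log2(FPKM + 1) and log2(FPKM + 0.1), a log2 fold change over 0.5, and GC correction: a lowess trend (span 0.2) per library on the GC content of the longest GENCODE 44 transcript, known for 99.6% of tested genes, entered as an offset. Of 58735 genes, 58207 have an ID in GENCODE 44, and all of these have the same chromosome there. The scripts were tested on simulated data.

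With 3 libraries in each group an exact permutation test of 1 gene cannot go below p = 0.10, so the model across all genes was used. P-values measure the spread between these libraries. Members, lists and tests were chosen with earlier results of these data known. Genes named in full were those past the threshold, the 5 smallest p-values in each direction, the 5 regulators, FASN, SCD, ACACA, ACLY and SQLE, genes of other lists past the threshold, and ABCB1. The remaining members were described to account for all 37, after their values had been seen. Not every gene of the other lists is reported here.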

Additional observations from a re-analysis of the deposited data

How the results depend on the processing

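Calls among the 37 genes depended on the setting, and so did the size of some fold changes. Over 18 of these genes and 18 alternatives (324 values), 255 kept direction and side of the threshold, 40 passed it newly, 9 (all SOAT1) no longer passed and 20 changed sign. The other members are outside this tally. Among them MVD passed in 6 of 18 alternatives, with log2 fold changes from -1.139 to -0.465, and ELOVL5 passed in 4. SC5D, HSD17B7, STARD4 and FADS2, also outside it, changed sign in some alternatives. Members called higher and lower, 1 and 0 in edgeR, were 3 and 5 with DESeq2, 3 and 4 without a filter, 0 and 0 with RLE scaling and in the 3 limma fits on FPKM, 3 and 8 with GC correction, and 3 and 14 with GC correction without RC4-2B replicate 2. Leaving out 1 library gave 0 to 3 higher and 0 to 12 lower members, and the 12 came without RC4-2B replicate 2. SOAT1 had an adjusted p of 0.053 with RLE scaling and 0.097, 0.10 and 0.17 with limma. The causes were not tested.

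Calls over all genes also depended on the setting, with 162 higher and 136 lower in edgeR. There were 500 and 402 with DESeq2, 604 and 646 without a filter, 46 and 58 with limma on log2(FPKM + 1), 39 and 47 on log2(FPKM + 0.1), 13 and 23 with no FPKM filter, 657 and 490 with GC correction, and 1037 and 1013 with GC correction without RC4-2B replicate 2. Leaving out 1 library gave 13 to 1000 higher and 31 to 925 lower genes. The lowest counts came without a C4-2B library (13, 19 and 20 higher and 31, 38 and 36 lower without replicates 1, 2 and 3) or RC4-2B replicate 3 (29 and 49), and without RC4-2B replicate 1 there were 252 and 222.

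The signs that changed among the 18 genes of the tally belong to genes that passed in no setting. SREBF1, at -0.14, was 0.0845 without RC4-2B replicate 2, 0.222 with GC correction and 0.212 with both. FASN, at -0.10, was 0.0545, 0.414 and 0.210 in these settings, and SCD, at 0.08, was -0.0135, -0.0099 and -0.0591. INSIG1 was -0.0401 without that library and -0.0927 with both, SCAP 0.102 with GC correction, and INSIG2 -0.142 with GC correction, -0.0549 with both and -0.0322 without C4-2B replicate 3. With 1 library left out in turn, these values ranged from -0.387 to 0.0845 for SREBF1, -0.240 to 0.0545 for FASN, -0.0135 to 0.151 for SCD, -0.0401 to 0.276 for INSIG1 and -0.0322 to 0.123 for INSIG2.

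The replicate numbers were not taken as pairs: same-numbered libraries had correlations of deviations of 0.32, 0.18 and -0.07, and C4-2B replicate 3 matched RC4-2B replicate 2 best. With the number as a replicate block, 0 members were called higher and 0 lower (55 and 74 of all genes), and with block and GC correction 3 and 6 (642 and 564 of all genes). In the latter, SREBF1 was 0.219, SCAP 0.0868, INSIG2 -0.139, FASN 0.392 and SCD -0.0115.

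Counts of members were well above the floor, so depth limits these results less than the 3 libraries of each line. All are from 1 resistant subclone.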

Other observations

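Further genes of lipid metabolism passed the threshold after GC correction, in lists that had no call before it apart from ELOVL2. ME1, the malic enzyme that supplies NADPH, had 131, 135 and 132 CPM in C4-2B and 161, 214 and 204 CPM in RC4-2B, without overlap between the lines (GC-corrected log2 fold change 0.35, SE 0.09, edgeR adjusted p = 0.046).

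Enzymes of mitochondrial oxidation had lower values. ETFB, a subunit of the electron transfer flavoprotein, had 74.8, 63.5 and 59 CPM in C4-2B and 50.5, 33.1 and 45.1 CPM in RC4-2B (GC-corrected log2 fold change -0.66, SE 0.15, adjusted p = 0.029). ECHS1, the short-chain enoyl-CoA hydratase, had 533, 479 and 469 CPM in C4-2B and 418, 302 and 343 CPM in RC4-2B (-0.37, SE 0.09, adjusted p = 0.038). Both were lower in every RC4-2B library. These were 2 of 18 genes in the oxidation list, beside 3.25% of all genes called lower with GC correction.

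LPIN2, a phosphatidate phosphatase of glycerolipid synthesis, had 51.2, 54.5 and 51.1 CPM in C4-2B and 35.1, 29.2 and 38 CPM in RC4-2B, without overlap (GC-corrected log2 fold change -0.65, SE 0.11, adjusted p = 0.0082). ELOVL2 remained lower (-1.51, adjusted p = 0.0022). ACSL1 and ACSL3, which activate fatty acids as acyl-CoA, had GC-corrected log2 fold changes of -0.39 and -0.41 (adjusted p = 0.033 and 0.040). ACSL1 was lower in every RC4-2B library, and ACSL3 overlapped, with 226, 232 and 275 CPM in C4-2B and 166, 268 and 209 CPM in RC4-2B. All of these also passed without RC4-2B replicate 2, with the same signs.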
